A study of Mus musculus with 18 samples.

Results

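Mouse ovarian follicles were cultured for 12 h with recombinant anti-Müllerian hormone (AMH) at 50 ng/mL or with vehicle, and their RNA was measured on Affymetrix 430 2.0 arrays. The comparison was chosen by the sample titles, as the arrays of 12 h at 50 ng/mL and at 0 ng/mL, which gives 6 of the 18 arrays of the series, or 3 in each group. Because 1 of these 6 arrays stood apart from every other array, statements rest on the 4 arrays of replicates 1 and 2, with replicate 3 given beside them. The other 12 arrays hold a dose of 200 ng/mL at 12 h and the same 3 doses at 24 h, again with 3 arrays in each group.

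All groups share the same origin. Preantral and small antral follicles were dissected from female mice of 6 to 8 weeks of the strain written C57BL/6Ntac for the samples and C57BL/6Tac for the design. The follicles of 7 mice formed 1 pool per experiment, each pool was divided over the 3 doses, and single follicles were grown in drops. All drops, vehicle included, also contained 80 IU/L follicle-stimulating hormone (FSH) and 10 IU/L luteinizing hormone (LH), so the comparison is AMH with gonadotropins against gonadotropins. Labelled cDNA was prepared from 5 ng of total RNA of whole follicles, so an array combines the granulosa cells, theca cells and oocytes of many follicles. The titles and source names place these arrays at 12 h, whereas the free-text description of the AMH arrays names 24 h, and the titles were followed.

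AMH is a hormone of the transforming growth factor β family that granulosa cells of growing follicles secrete. It binds the type 2 receptor AMHR2 on granulosa cells, which recruits the type 1 receptors ACVR1, BMPR1A or BMPR1B and leads to phosphorylation of SMAD1, SMAD5 and SMAD9. With SMAD4 these switch on direct targets such as the ID genes and the inhibitory SMADs, and in the ovary AMH is known for restraining follicle recruitment and the response to FSH.

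The AMH array of replicate 3 did not resemble any other array. Its log2 signals correlated with those of the other 17 arrays at r = 0.604 to 0.624, against 0.952 to 0.992 among the 15 arrays outside 12 h replicate 3. Its hybridisation controls averaged 35724 against 1724 to 4237 in the other 17 arrays, and its brightest probe set reached 60888. The difference from vehicle had an SD over 11200 genes of 1.99 on the log2 scale in replicate 3, against 0.32 in replicate 1 and 0.40 in replicate 2. The vehicle array of replicate 3 also differed from the other vehicle arrays of 12 h in cell type markers. Its 22 oocyte markers summed to 923 signal units, against 7743 and 14910 in replicates 1 and 2, and its 14 theca and interstitial markers summed to 17558, against 9548 and 6992.

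No single probe set passed the test in the main comparison. Of 22518 probe sets above the median brightness, limma called 0 between AMH 50 ng/mL and vehicle at 12 h at a Benjamini-Hochberg adjusted p under 0.05 (percent called 0), and the smallest adjusted p was 0.661. At an unadjusted p under 0.05 there were 1527 probe sets (6.78%). The median standard error of a difference was 0.21 on the log2 scale. The differences of the 2 pools correlated at r = 0.12 across genes, which are not independent replicates, and had the same sign in 55.5% of genes. Leaving out replicate 1 or replicate 2 of 12 h, with the lone remaining pair of arrays assumed to vary like the other groups, gave 1 and 7 called probe sets. What follows describes genes and gene groups by their values in each pool, beside the share of all 11200 genes that did the same: 28.4% were higher with AMH in both pools and 27.1% were lower in both. Where the AMH values of a gene are said to lie above or below both vehicle values, the share of all genes that did so was not counted. Many of these genes were named for a small p in these arrays or after their values were seen. Such a separation is then not independent of their choice.

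Direct targets of the AMH pathway were more often higher than lower with AMH. Of 15 SMAD1/5/9 target genes, 11 were bright enough to be tested, and 6 of these were higher in both pools, 0 were lower in both and 5 were mixed. Their median difference was 0.28 on the log2 scale, with 0.22 in replicate 1 and 0.39 in replicate 2, against -0.002 for all genes. limma called 0 of the 11, and 1, Id1, was higher at an unadjusted p under 0.05, as were 3.28% of all genes. The fit with all 18 arrays, replicate 3 included, moved the median to -0.041.

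Id1, a dominant-negative helix-loop-helix factor and the best known target of the pathway, went from a signal of 367 to 435 in replicate 1 and from 280.4 to 396 in replicate 2. Its AMH values lay above both of its vehicle values in these 2 pools, a log2 difference of 0.35 (SE 0.15, n = 2 pools) with a limma adjusted p of 0.703. In replicate 3 its vehicle and AMH signals were 465 and 1756. Id3, of the same family, went from 785 to 892 in replicate 1 and from 1007 to 1329 in replicate 2, and the groups overlapped, because the vehicle value of replicate 2 exceeded the AMH value of replicate 1. Its difference was 0.29 (SE 0.17, n = 2 pools), with an adjusted p of 0.796. Smad6, the inhibitory SMAD that dampens this branch of signalling, went from 83.0 to 108 in replicate 1 and from 118 to 210.2 in replicate 2, the largest difference among the 6 genes higher in both pools at 0.54 (SE 0.27, n = 2 pools), with an adjusted p of 0.752. Here too the vehicle signal of replicate 2 was above the AMH signal of replicate 1, so the difference is one within pools.

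Smad7, the inhibitory SMAD that acts on both branches of the family, differed by 0.30 and 0.26 in the 2 pools. Hey1, a transcriptional repressor that is also a Notch target, went from 135 to 193 in replicate 1 and from 126 to 184 in replicate 2, similar steps whose groups did not overlap in these 2 pools. Its difference was 0.48 (SE 0.25, n = 2 pools), with an adjusted p of 0.756, and its replicate 3 signals were 536 and 5.07. Bmper, which encodes a secreted modulator of bone morphogenetic proteins (BMPs), was higher by 0.22 and 0.12. The other ID genes did not follow: Id2 differed by -0.44 and 0.34 in the 2 pools. Id4 differed by 0.41 and -0.95, and Grem1, a secreted BMP antagonist, by 0.13 and -1.47.

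**Figure D1:**
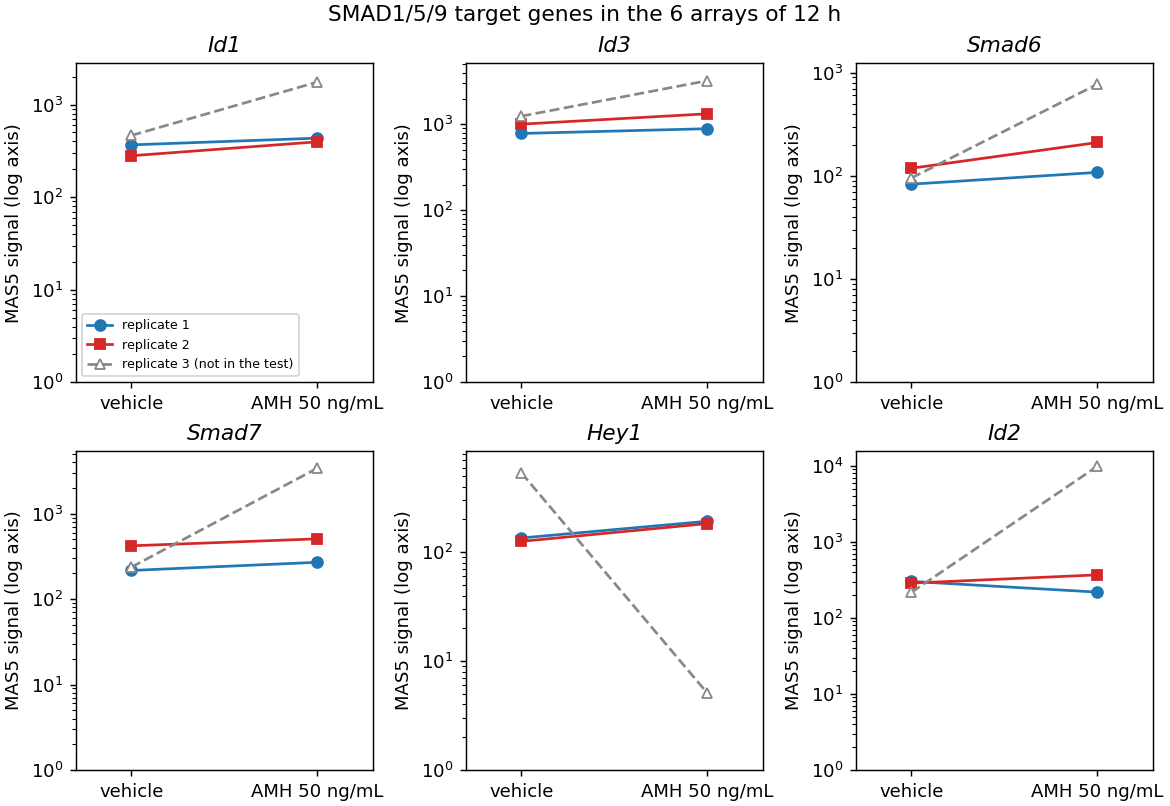
Microarray signal (MAS5 units, log axis) of 6 SMAD1/5/9 target genes in the vehicle and AMH 50 ng/mL arrays of 12 h, with each line joining the 2 arrays of 1 follicle pool. The solid lines of replicates 1 and 2 run upward for Id1, Id3, Smad6, Smad7 and Hey1 and in opposite directions for Id2, while the dashed lines of replicate 3, which entered no test, are far steeper.

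The promoters of Id3 and Smad6 are shown because they are 2 of the 6 pathway targets that were higher in both pools and SMAD proteins act through short DNA elements near such genes. The sequences are from RefSeq on the build GRCm38.p6 and run from 250 bases before the annotated start to 20 bases after it, that of Id3 at chr4:136143572-136143841 on the plus strand and that of Smad6 at chr9:64022040-64022309 on the minus strand. Capitals mark matches on either strand to the SMAD element CAGAC, its palindrome GTCTAGAC or the GC-rich element GGCGCC.
Id3: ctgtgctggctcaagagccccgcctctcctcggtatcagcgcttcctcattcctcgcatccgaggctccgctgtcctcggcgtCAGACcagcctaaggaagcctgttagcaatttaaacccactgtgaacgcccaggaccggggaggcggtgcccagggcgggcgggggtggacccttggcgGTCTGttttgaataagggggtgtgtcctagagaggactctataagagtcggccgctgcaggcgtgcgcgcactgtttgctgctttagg
Smad6: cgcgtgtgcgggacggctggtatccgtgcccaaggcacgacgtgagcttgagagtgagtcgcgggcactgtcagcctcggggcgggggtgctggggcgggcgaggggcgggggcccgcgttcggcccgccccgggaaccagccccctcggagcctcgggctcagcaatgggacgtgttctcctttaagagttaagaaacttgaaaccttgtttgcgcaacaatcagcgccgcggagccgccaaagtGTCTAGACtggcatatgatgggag
Id3 held 2 CAGAC elements, a motif present in 45.4% of 32851 promoter windows of the same length. Smad6 held 1 palindrome, at the annotated start, which 0.183% of windows hold. The GC-rich element was in neither window and in 10.4% of all windows. These matches describe letters in the reference and no binding was measured.

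The ligands, receptors and signal carriers of the pathway showed no common direction. Of 20 such genes 17 were tested, and 5 were higher in both pools, 4 were lower in both and 8 were mixed, with a median of 0.02. Amhr2, the AMH receptor itself, went from 855 to 767 in replicate 1 and from 1391 to 1322 in replicate 2, a difference of -0.11 (SE 0.14, n = 2 pools). Among type 1 receptors, Acvr1 differed by 0.13 and 0.16 and Bmpr1a by 0.09 and 0.08, and Bmpr1b by -0.59 and 0.05. The signal carriers Smad1, Smad5 and Smad4 had differences of 0.06, 0.02 and 0.08. For 6 of these genes the tested probe sets did not share a direction: those of Amhr2 ran from -0.11 to 0.12, those of Acvr1 from -0.29 to 0.15, those of Bmpr1a from -0.24 to 0.20, those of Smad1 from -0.31 to 0.06, those of Smad5 from -0.15 to 0.24 and those of Smad4 from -0.05 to 0.08. Amh, the ligand's own gene, had signals of 76.3 and 221 in the vehicle arrays and 50.7 and 214 in the AMH arrays, so the 2 pools differed from each other more than the treatments did.

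Gdf10, a BMP-like ligand also called BMP3B, had the largest difference of this group. Its signal went from 131 to 63.7 in replicate 1 and from 132 to 24.7 in replicate 2, with both AMH values below both vehicle values. Gdf10 was named for the smallest p among the lower genes of its list, so this separation is not independent of its choice. The difference was -1.37 (SE 0.42, n = 2 pools) at a limma adjusted p of 0.688, and its replicate 3 signals were 269 and 1.75. At 200 ng/mL, in the same 2 pools, its signal was 107 and 179. At 24 h the differences at 50 ng/mL were -0.20, 0.63 and -0.54 in the 3 pools. In the neighbouring activin branch, inhibin, activin and follistatin genes had a median of -0.11 over 7 tested genes, with 1 higher and 2 lower in both pools. Inha, the shared inhibin subunit, differed by -0.03 and -0.06, and Fst, which binds and blocks activin, by 0.54 and 0.15, although its other tested probe set was level at -0.003. Tgfbr3, the co-receptor betaglycan, went from 569 to 185 in replicate 1 and from 88.8 to 103 in replicate 2, so its step lay in replicate 1, and without replicate 2 limma called it at -1.54 (adjusted p 0.0303).

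The most uniform pattern of the comparison lay in oocyte genes, which were lower with AMH. Of 24 oocyte markers 19 were tested, and 19 of the 19 were lower in both pools, against 27.1% of all genes. 12 of them were lower by more than 0.5 on the log2 scale in both pools, as were 1.71% of all genes. The median difference was -0.75, with -1.05 in replicate 1 and -0.54 in replicate 2. limma called 0 of the 19, and 8 had an unadjusted p under 0.05 with a lower value, against 4.25% of all genes. In bulk RNA, fewer oocytes and less RNA per oocyte cannot be told apart.

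The zona pellucida genes encode the glycoprotein coat of the oocyte. Zp3 went from 846 to 361 in replicate 1 and from 1786 to 1119 in replicate 2, and the groups overlapped across pools because replicate 2 was brighter throughout. Its difference was -0.93 (SE 0.51, n = 2 pools), with an adjusted p of 0.771, and its replicate 3 signals were 41.9 and 48.3 in vehicle and AMH. Zp1 and Zp2 differed by -0.92 and -1.16. Among the secreted growth factors through which the oocyte instructs its granulosa cells, Bmp15 went from 300.4 to 141 in replicate 1 and from 739 to 518 in replicate 2. Its difference was -0.75 (SE 0.29, n = 2 pools), with an adjusted p of 0.703, and its replicate 3 signals were 4.65 and 11.8. The difference of its partner Gdf9 was -0.65 (SE 0.36, n = 2 pools).

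Genes of the subcortical maternal complex, a protein assembly stored in the egg for the early embryo, were lower as well. Tle6 went from 577 to 302 in replicate 1 and from 1182 to 697 in replicate 2, and with nearly equal steps of -0.90 and -0.75 it had the smallest limma adjusted p of the list, 0.661. In replicate 3 its signals were 203 and 123. Nlrp5 went from 524 to 209 in replicate 1 and from 1179.7 to 664 in replicate 2, and Ooep from 1205 to 716 in replicate 1 and from 2058 to 1606 in replicate 2. The step was larger in replicate 1 than in replicate 2 for both genes.

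Transcription factors that establish the oocyte program were in the same range. Nobox differed by -1.40 and -0.79 and Lhx8 by -1.05 and -0.57, and Figla, whose product activates the zona genes, was too dim to be tested at signals of 27.5 and 34.4 in the vehicle arrays. Kit, the receptor for the granulosa cell factor KITL and also expressed outside the oocyte, had the smallest difference of the list at -0.34 (SE 0.26, n = 2 pools). The 19 differences ran from -1.16 to -0.34.

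**Figure D2:**
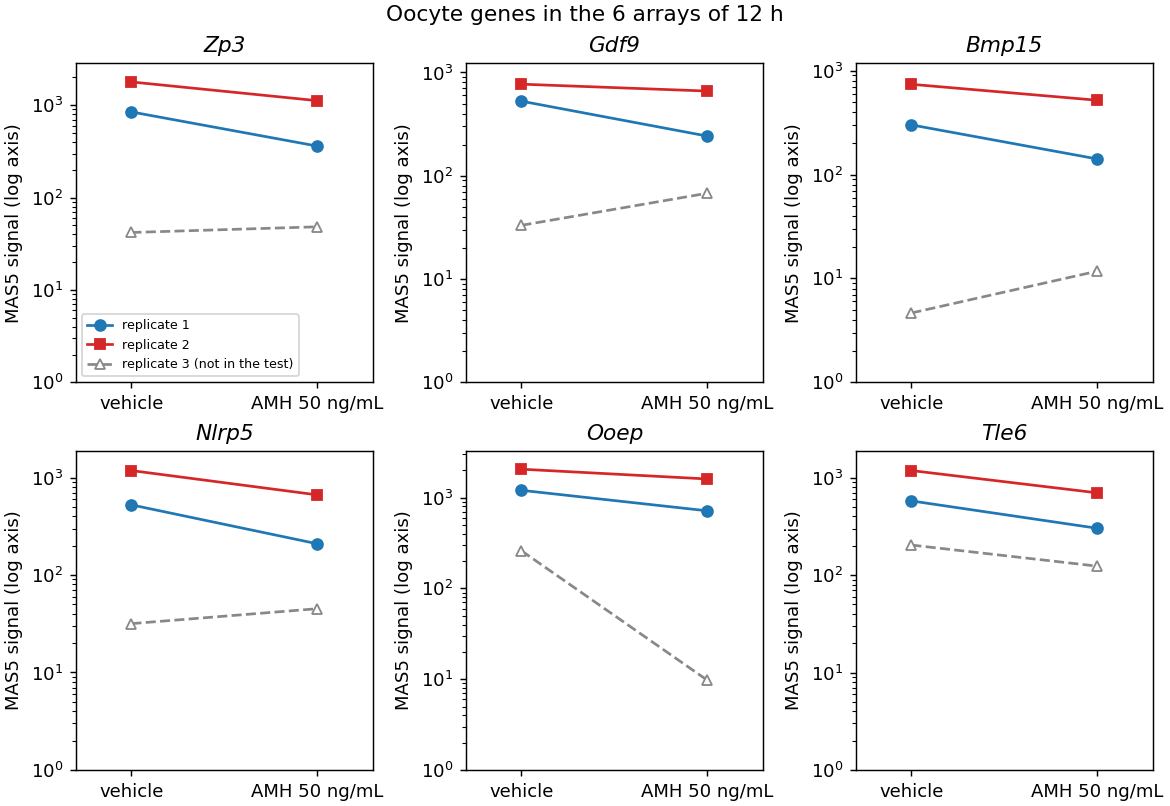
Signal (MAS5 units, log axis) of 6 oocyte genes in the vehicle and AMH 50 ng/mL arrays of 12 h, with each line joining the 2 arrays of 1 follicle pool. All solid lines of replicates 1 and 2 run downward at different heights, and the dashed lines of replicate 3 start far lower, at a vehicle signal of 41.9 for Zp3.

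Over the 3 vehicle pools of 12 h, replicate 3 included, the oocyte signal varied by more than it varied with AMH. The summed signal of 22 oocyte markers was 7743, 14910 and 923 in the 3 vehicle arrays of 12 h and 3741, 10237 and 961 in the AMH arrays. AMH 50 ng/mL was lower than its own vehicle array in replicates 1 and 2 and near it in replicate 3, where 14 of the 19 tested markers were higher with AMH and 5 lower, against 33.7% of all genes higher. In vehicle replicate 3, 18 of the 19 markers lay under 0.5 times their signal in both other vehicle arrays, as did 6.14% of all genes. Whether the number of oocytes differed between the cultures was not tested. Summed granulosa cell markers differed less, at 10728 and 12164 in vehicle and 10360 and 11322 with AMH in replicates 1 and 2.

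The zona gene Zp3 and the oocyte ligand gene Bmp15 are shown because both were lower in both pools and oocyte-restricted genes are known for E-boxes near their start, the elements bound by FIGLA with its partners. The RefSeq windows on GRCm38.p6 cover the same span around the start, at chr5:135979855-135980124 on the plus strand and chrX:6320705-6320974 on the minus strand, with every CANNTG in capitals, a motif that reads the same on both strands.
Zp3: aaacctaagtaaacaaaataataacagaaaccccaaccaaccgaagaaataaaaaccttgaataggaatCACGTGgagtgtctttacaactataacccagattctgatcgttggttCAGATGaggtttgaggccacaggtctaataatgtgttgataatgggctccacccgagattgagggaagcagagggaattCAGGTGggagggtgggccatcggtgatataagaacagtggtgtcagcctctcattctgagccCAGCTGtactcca
Bmp15: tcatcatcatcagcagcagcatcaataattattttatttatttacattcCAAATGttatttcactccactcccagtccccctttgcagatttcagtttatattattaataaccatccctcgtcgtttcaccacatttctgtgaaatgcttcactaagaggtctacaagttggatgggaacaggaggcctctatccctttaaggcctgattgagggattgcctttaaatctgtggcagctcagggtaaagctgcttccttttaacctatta
Zp3 held 4 such matches and Bmp15 held 1, and 68.9% of all windows of this length held at least 1.

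The same oocyte markers can be set beside the other arrays of the study. At 24 h, in follicle pools that share no array with those of 12 h, the median of the 19 markers at 50 ng/mL was -0.06, -0.68 and -1.30 in the 3 pools. The markers were lower in 12, 19 and 19 of 19 cases in these pools, where 55.1%, 45.2% and 48% of all genes were lower, and 12 of the 19 were lower in all 3, against 11.7% of all genes. limma found 0 probe sets whose effect of 50 ng/mL differed between 24 h and 12 h (988 at an unadjusted p under 0.05, 4.39%), and the median difference of the oocyte markers between the 2 times was -0.006. At 200 ng/mL and 12 h, which shares its vehicle arrays with the comparison at 50 ng/mL, the medians were 0.39 and -0.07 in replicates 1 and 2. Compared directly, with the same arrays of 50 ng/mL, all 19 markers had higher fitted values at 200 than at 50 ng/mL, as did 49.1% of all genes, with a median of 1.02. limma called 0 of the 22518 probe sets between these 2 doses (1873 at an unadjusted p under 0.05, 8.32%). Without 12 h replicate 2, limma called 98 probe sets between the doses and 3 between the times. Tle6, for example, had signals of 541 and 1074 at 200 ng/mL and Bmp15 had 526 and 657.

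**Figure D3:**
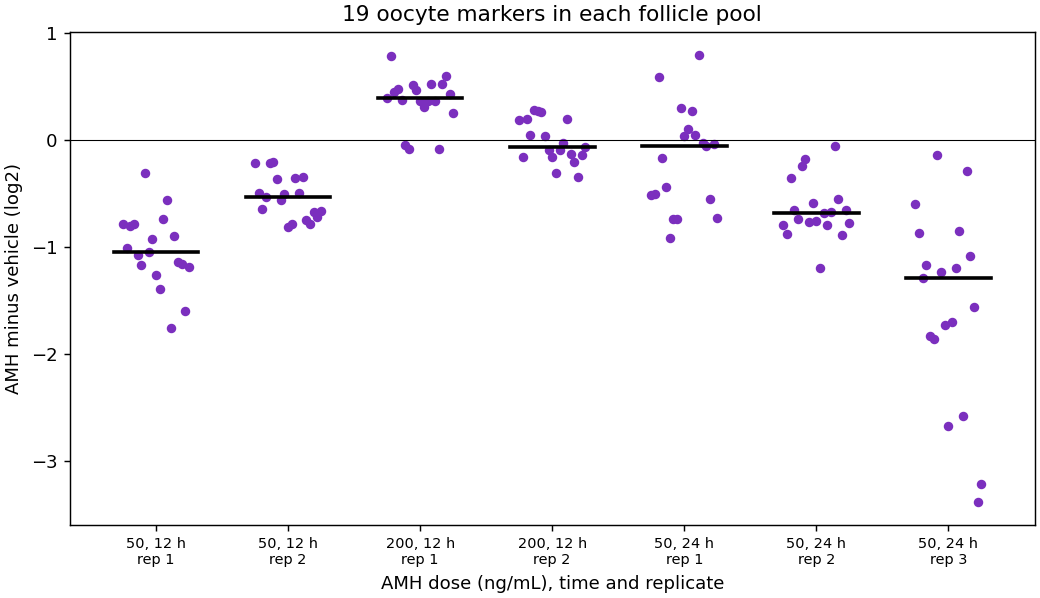
Log2 difference from the vehicle array of the same pool for the 19 tested oocyte markers, with 1 column of points per pool and a bar at the median. The 2 pools of 50 ng/mL at 12 h lie below 0 throughout, those of 200 ng/mL lie around 0.39 and -0.07, and the 3 pools of 24 h have medians of -0.06, -0.68 and -1.30.

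Single genes were next ranked by unadjusted p. The 10 genes of smallest p among those lower in both pools had log2 differences of -1.40 to -0.78, all at an adjusted p of 0.661. Nlrp4e, an oocyte-expressed member of the NLRP family, went from 71.7 to 15.6 in replicate 1 and from 135 to 44.1 in replicate 2, a difference of -1.40 (SE 0.28, n = 2 pools). Kif17, a kinesin motor, went from 90.3 to 24.0 in replicate 1 and from 242 to 87.1 in replicate 2, and AU015836, a gene with no settled function, went from 204 to 90.8 in replicate 1 and from 534 to 256 in replicate 2. The steps were nearly equal in the 2 pools for these 3 genes. Among the same 10, those of Fa2h were -0.92 and -1.61 and those of Fam241b were -1.08 and -0.60. The ranking used these same steps, so their closeness is not independent of it.

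C86187, with the smallest p of these 10, went from 599 to 304 in replicate 1 and from 1283 to 825 in replicate 2 and had 664 and 1307 at 200 ng/mL. The remaining genes lower in both pools were Igsf23, Slc38a9, Fam241b, Firre, Gm29811 and Fa2h. Probe sets ran from -1.37 to -0.78 for Kif17, from -1.08 to 0.02 for Slc38a9, and for Firre the smallest difference among its 4 was -0.15. In vehicle replicate 3, the array with low oocyte signal, all 10 lay under 0.5 times their signal in both other vehicle arrays, as did 6.14% of all genes. Those other vehicle arrays also entered the ranking, so this count is not independent of it. At 24 h, 7 of the 10 were lower in all 3 pools, against 11.7% of all genes. The part of oocyte content in these 10 values was not tested.

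The 10 genes of smallest p among those higher in both pools had log2 differences of 0.60 to 1.01, also at an adjusted p of 0.661. Akt1s1, which encodes the PRAS40 inhibitor of the kinase complex mTORC1, went from 241 to 385 in replicate 1 and from 135 to 255 in replicate 2, and Tor3a, an endoplasmic reticulum ATPase of the torsin family, from 54.0 to 109 in replicate 1 and from 16.7 to 57.9 in replicate 2. Hilpda, a hypoxia-inducible lipid droplet protein, went from 165 to 304 in replicate 1 and from 101 to 225 in replicate 2. For all 3 the AMH signals lay above both vehicle signals in these 2 pools. They were ranked on the same arrays, so this separation is not independent of their choice. Other probe sets showed far smaller differences: the 3 tested for Akt1s1 ran from 0.06 to 0.74 and the 3 for Tor3a from 0.11 to 1.01.

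The others were Nudt1, which hydrolyses oxidized nucleotides, Polr2f, a subunit shared by the RNA polymerases, Timm17b, part of the mitochondrial import channel, Selenok, a selenoprotein of the endoplasmic reticulum, Dusp19, a phosphatase, and 2810004N23Rik and BC028528. For Timm17b the other tested probe set pointed the other way, at -0.42 against 0.70, and the 2 of 2810004N23Rik ran from 0.16 to 1.01. At 24 h, 6, 3 and 9 of the 10 were higher in pools 1, 2 and 3. The other 4, 7 and 1 were lower, where 55.1%, 45.2% and 48% of all genes were lower. In vehicle replicate 3, 0 of these 10 lay under 0.5 times their signal in both other vehicle arrays, against 6.14% of all genes. The ranking used those other vehicle arrays, so this count is not independent of it.

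Granulosa cell markers, the genes of the cells that carry the AMH receptor, did not share a direction. Of 15 tested, 2 were higher and 4 lower in both pools, with a median of -0.02. Foxl2, the transcription factor that maintains granulosa identity, was level at 477 and 451 in vehicle and 484 and 446 with AMH, a difference of 0.00 (SE 0.18, n = 2 pools). Wt1, a transcription factor of granulosa cells of early follicles, went from 147 to 203 in replicate 1 and from 172 to 256 in replicate 2. Both AMH values lay above both vehicle values, but Wt1 was named for the smallest p among the higher markers. Its difference was 0.48 (SE 0.17, n = 2 pools), with a limma adjusted p of 0.691, and its replicate 3 signals were 126 and 28.9. At 24 h its differences were -0.95, -0.77 and -0.40, and the test of the change between the times gave -1.19 (SE 0.22) at an adjusted p of 0.999.

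Prkar2b, the FSH-induced regulatory subunit of protein kinase A, went from 899 to 593 in replicate 1 and from 512 to 355 in replicate 2, a difference of -0.55 (SE 0.24, n = 2 pools). Nr5a2, a nuclear receptor needed for ovulation, was the other marker higher in both pools, at 0.12 and 0.47, while its 4 tested probe sets ran from -0.07 to 0.29. Genes that answer FSH through cyclic AMP had a median of -0.08 over 12 tested, with 2 higher and 3 lower in both pools. Ccnd2, the cyclin through which FSH drives granulosa cell division, differed by 0.30 and 0.30, and its 7 tested probe sets ran from -0.14 to 0.30. Nr4a1, an early orphan nuclear receptor, went from 107 to 60.0 in replicate 1 and from 123 to 79.1 in replicate 2, both AMH values below both vehicle values, at an adjusted p of 0.703. Fshr was dim, at 37.4 and 7.19 in vehicle and 29.6 and 22.6 with AMH.

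Steroidogenic genes showed no common direction. Of 10 tested steroidogenic genes 2 were higher and 3 lower in both pools, with a median of -0.06. Star, which carries cholesterol into mitochondria, went from 1557 to 1186 in replicate 1 and from 919 to 792 in replicate 2, with its 3 probe sets from -0.64 to -0.01, and Cyp11a1, which makes pregnenolone, differed by -0.72 and 0.53. The ovulatory genes were split between the pools. Of 10 tested LH and cumulus expansion genes 2 were higher and 1 lower in both. The list medians were 0.44 in replicate 1 and -0.13 in replicate 2. Ptx3, which stabilizes the cumulus matrix, went from 116 to 607 in replicate 1 and from 735 to 145 in replicate 2, and Ptgs2, the prostaglandin synthase of ovulation, differed by 0.41 and -1.19. Both genes went in opposite directions in the 2 pools, whereas Cd44, the hyaluronan receptor, was higher in both at 0.48 and 0.44.

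Cholesterol synthesis genes showed a pool difference of the same kind, with medians of 0.37 in replicate 1 and -0.14 in replicate 2 over 18 genes. Cyp51 differed by 0.49 and 0.23 and Fdps by 0.44 and 0.18, 2 of the 6 enzymes and regulators higher in both pools, while Stard4, a sterol carrier, differed by 0.63 and -0.42. Hypoxia and glycolysis genes had medians of 0.20 and -0.21. Adm, the vasodilator peptide adrenomedullin, had the largest fitted difference of that list at -1.38 (SE 0.47, n = 2 pools), and the step lay in replicate 1. Its signal was 165 with AMH in replicate 1 against 1107 in vehicle, and 1517 against 1661 in replicate 2, where the difference was -0.13. Without replicate 2 of 12 h, limma called Adm at -2.64 (adjusted p 0.00831). The other tested probe set of Adm pointed the other way in the fit with both pools, at 0.40, so the direction rests on 1 probe set.

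**Figure D4:**
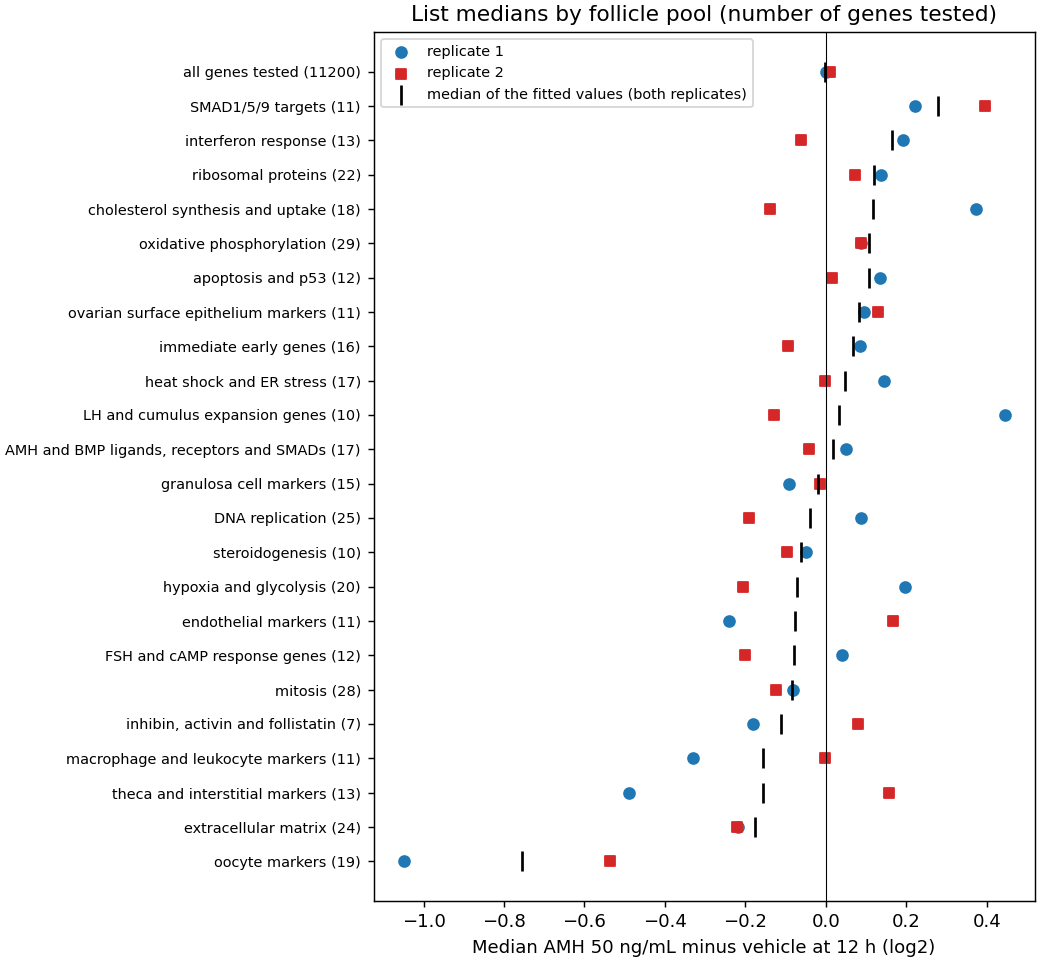
Median log2 difference between AMH 50 ng/mL and vehicle at 12 h for each gene list, in replicate 1 (circles), in replicate 2 (squares) and as the median of the fitted values (bars), with the number of tested genes in parentheses. Oocyte markers lie lowest in both pools at -1.05 and -0.54, while cholesterol, cumulus and theca lists fall on opposite sides of 0 in the 2 pools.

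Extracellular matrix genes were mostly lower. Of 24 tested, 13 were lower and 1 was higher in both pools, with a median of -0.18. Centring each array on its median signal shifted the median of all genes from -0.002 to 0.11, and on that scale 9 matrix genes were lower in both pools with a median of -0.06. After quantile normalization 13 were lower and 1 was higher in both pools, with a median of -0.19. The shares of all genes lower in both pools on these 2 scales were not counted. Mmp2, the gelatinase that degrades basement membrane collagen, went from 659 to 459 in replicate 1 and from 657 to 386 in replicate 2, both AMH values below both vehicle values. Its difference was -0.63 (SE 0.24, n = 2 pools), with an adjusted p of 0.703, its 2 probe sets ran from -0.63 to -0.27, and its replicate 3 signals were 1188 and 29.3. Col5a2, a fibrillar collagen chain, differed by -0.74 and -0.43 and Col1a2, of the main interstitial collagen, by -0.49 and -0.65. The 2 probe sets of Col5a2 ran from -0.58 to -0.38 and those of Col1a2 from -0.57 to -0.37.

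The stromal receptor Pdgfra, a mark of theca and interstitial cells, went from 309 to 151 in replicate 1 and from 249 to 166 in replicate 2, a difference of -0.75 (SE 0.37, n = 2 pools), and its 3 probe sets ran from -0.75 to 0.05. The theca list as a whole, which shares Col1a2 and Col3a1 with the matrix list, differed between pools, with medians of -0.49 and 0.16, 0 genes higher and 5 lower in both pools. Summed theca and interstitial markers were 9548 and 6992 in vehicle and 7360 and 8084 with AMH, so they were lower with AMH in replicate 1 and higher in replicate 2. The part of theca content in the matrix values was not tested. Timp1, an inhibitor of matrix proteases, was the 1 matrix gene higher in both pools, at 0.33 and 0.19. At 24 h the matrix medians were 0.59, 0.03 and 0.02 in the 3 pools.

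**Figure D5:**
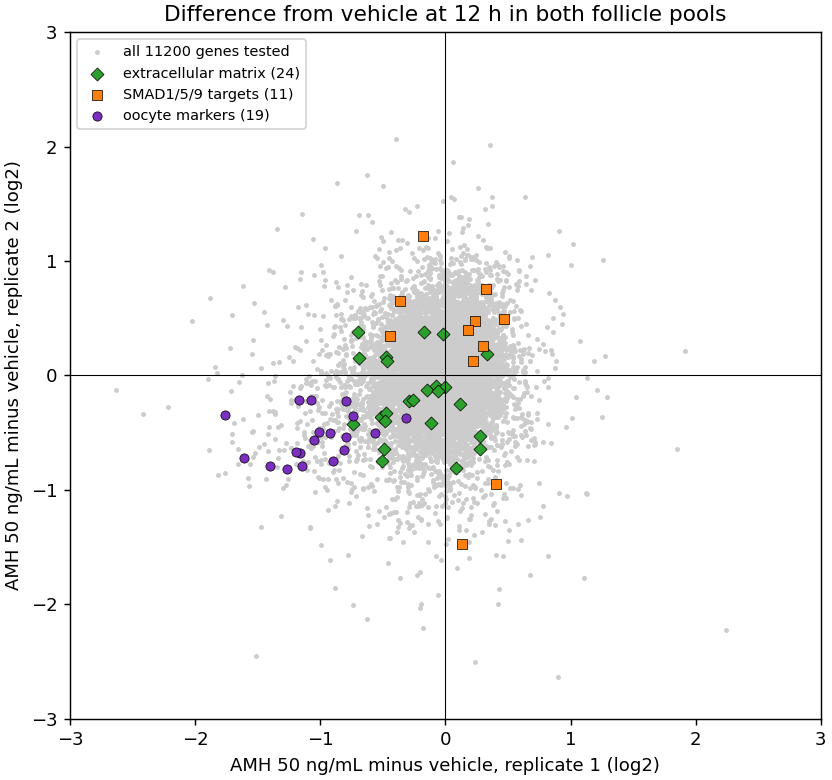
Log2 difference between AMH 50 ng/mL and vehicle at 12 h in replicate 1 (horizontal axis) and replicate 2 (vertical axis), with grey points for all 11200 genes tested. The 19 oocyte markers all fall in the lower left, 6 of the 11 SMAD1/5/9 targets fall in the upper right, and 13 of the 24 matrix genes fall in the lower left.

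Ribosomal protein genes and oxidative phosphorylation genes had small positive differences that depended on scaling. Of 22 ribosomal protein genes 17 were higher and 0 lower in both pools, with a median of 0.12, but after quantile normalization these counts were 9 and 4 with a median of 0.04. With median centring, which put the median of all genes at 0.11, they were 20 and 0 with a median of 0.23. Of 29 respiratory chain genes 20 were higher and 1 lower in both pools, with a median of 0.11, and after quantile normalization these counts were 10 and 6 with a median of 0.05. With median centring they were 25 and 1 with a median of 0.22. Uqcrfs1, the Rieske protein of complex III, differed by 0.25 and 0.39, and Rps14 by 0.42 and 0.01.

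Cell cycle genes had small negative medians, and mitotic genes were more often lower than higher. Of 28 mitotic genes 13 (46.4%) were lower and 5 (17.9%) higher in both pools, against 27.1% and 28.4% of all genes. Their median was -0.08. This median was 0.03 with median centring, where that of all genes was 0.11. With quantile normalization the 2 medians were -0.06 and 0.01. Mki67, the proliferation antigen, differed by -0.10 and -0.13, and Bub1b, a spindle checkpoint kinase, by -0.83 and -0.23, with its 2 probe sets from -0.53 to -0.20. DNA replication genes had a median of -0.04 over 25, with 2 higher and 6 lower in both pools, and Pcna differed by 0.09 and -0.14. Apoptosis and p53 genes had a median of 0.11 over 12, with 5 higher and 2 lower in both.

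The remaining lists had small medians or too little signal. Interferon genes had a median of 0.17 over 13, with 5 higher and 1 lower in both pools. Their pool medians were 0.19 in replicate 1 and -0.06 in replicate 2. Immediate early genes had a median of 0.07 over 16, with pool medians of 0.08 and -0.09. Heat shock and endoplasmic reticulum stress genes had 0.05 over 17. Macrophage and leukocyte markers had -0.16 over 11, and Laptm5, a lysosomal protein of leukocytes, went from 209 to 73.4 in replicate 1 and from 127 to 74.9 in replicate 2. Ptprc, the defining leukocyte antigen, stayed at 7.03 and 2.04 in vehicle and 3.92 and 6.71 with AMH, and summed leukocyte markers were 1584 and 1987 against 1248 and 1858.

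Endothelial markers had a median of -0.08 over 11, with pool medians of -0.24 and 0.17. Of their fitted values 7 were lower and 4 higher, where 5644 and 5556 of all 11200 genes were. In both pools 3 were higher (27.3%) and 1 lower (9.09%), against 28.4% and 27.1% of all genes. Esam, an endothelial adhesion protein and 1 of the 3 markers higher in both pools, went from 113 to 147 in replicate 1 and from 71.3 to 203 in replicate 2, while Flt1, a receptor for vascular endothelial growth factor and the 1 marker lower in both, differed by -0.39 and -1.37. Surface epithelium markers had 0.08 over 11, with Krt7 at 0.46 and 0.31. Of 8 red blood cell genes 4 had a probe set, and 0 passed the brightness filter. All 4 were under 50 signal units in vehicle replicates 1, 2 and 3, as were 9.67%, 10.9% and 13.4% of all genes tested. Those shares cover only genes that passed the filter, so they cannot show whether the 4 were unusually dim. The median signals of these vehicle arrays were 29.4, 27.9 and 23.1, themselves under 50.

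The targets of the pathway can also be set beside the other doses and times. At 24 h the medians of the 11 SMAD1/5/9 targets at 50 ng/mL were 0.18, -0.16 and 0.24 in the 3 pools, and 0 of the 11 were higher in all 3, against 11.8% of all genes. At 200 ng/mL and 12 h, against the same vehicle arrays, the medians were 0.16 and 0.54 in replicates 1 and 2. Id3 had signals of 1138 and 1472 and Smad6 of 98.4 and 342 at that dose. Tested directly, 8 of the 11 had higher fitted values at 200 than at 50 ng/mL, as did 49.1% of all genes. Their median was 0.15, and limma called 0 of them.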

How the data were processed

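RNA of 18 follicle cultures was measured on 1-colour Affymetrix Mouse Genome 430 2.0 arrays. The deposited series matrix holds linear intensity values (MAS5 signal, per the submitters' processing notes). The 2% trimmed mean had a median of 150 over the 18 arrays, read from the values as the authors' scaling. Of 45101 probe sets, 64 controls were left out, 34945 had 1 gene symbol, 932 had several and 9160 had none. Values were taken as log2(signal + 16), which understates changes of dim genes. limma 3.58.1 in R 4.3.3 (lmFit, eBayes with trend, two-sided, Benjamini-Hochberg) was fitted to 15 arrays, without the 3 of 12 h replicate 3, on the 22518 probe sets brighter than the median (percentile 50 of the mean log2 value), with the follicle pool as a block. The pairing comes from the labels, which state that each pool was divided over the doses and that samples compare within an experiment. Same-numbered vehicle and AMH 50 ng/mL arrays also deviated together from their group means across genes, at r = 0.494 at 12 h (replicates 1 and 2, a single value) and 0.210 to 0.515 at 24 h. Each estimate is thus the mean of 2 within-pool differences, with 6 residual degrees of freedom shared with 24 h. A gene is its brightest tested probe set. The number of arrays limits precision.

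The comparison and the gene lists were chosen with earlier results of these data known, and lists are described by counts and medians without a test. Genes were named by rule: the 10 rises and 10 falls of smallest unadjusted p with 1 direction in both pools, fixed pathway genes, and from each list the 3 brightest members and that of smallest p in each direction. Other list members were named after their values were seen. Promoter sequences are from RefSeq tables. Alternatives covered the arrays used, the block, pseudocount, normalization, brightness filter, variance trend, array weights, probe set choice and leaving out each pool. The fit was tested on simulated data, and figures were drawn with Python 3.11.15 and matplotlib 3.10.9.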

Additional observations from a re-analysis of the deposited data

How the results depend on the processing

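The oocyte marker median stayed below 0 under all alternatives run, from -1.05 to -0.48. The SMAD1/5/9 target median stayed above 0 except with all 18 arrays, at -0.041. Both medians were unchanged when 1 of the 24 h pools was left out. Arrays of 24 h can move them only through the brightness filter, because each estimate is a mean of within-pool differences. This is therefore no check of their stability, and the variance trend does not enter the estimates either. With only the 6 arrays of 12 h replicates 1 and 2 the medians were -0.74 and 0.28. Without 12 h replicate 1 or 2 the estimate is the difference of the other pool, so the medians repeat those of the single pools. They were -1.05 and -0.54 for oocyte markers and 0.22 and 0.39 for SMAD1/5/9 targets. The count of SMAD1/5/9 targets higher in both pools was 10 with no brightness filter, and that of oocyte markers lower in both was 12 with the filter at the 75th percentile, since more or fewer genes were tested. Without the replicate block, that is without pairing by pool, 633 probe sets had an unadjusted p under 0.05, and 0 were called with or without the block.

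The main comparison had 0 called probe sets under every other alternative that kept both 12 h pools. Leaving out 1 pool at a time gave 0 to 7 calls for AMH 50 ng/mL against vehicle, 0 to 98 for 200 against 50 ng/mL and 0 to 3 for the change between times, each highest without 12 h replicate 2, when a single pair of arrays stands for the group. Adm and Tgfbr3 were the 2 named genes called there, at -2.64 and -1.54 on the log2 scale (limma adjusted p 0.00831 and 0.0303), although the other tested probe set of Adm pointed the other way in the fit with both pools, at 0.40. Among the named genes, 0 were called under any other alternative. The count at an unadjusted p under 0.05 was 893 to 2339 over these fits, 2436 with all 18 arrays, 2888 with no filter and 817 at the 75th percentile. The number of pools, 2, limits what these arrays can show, and dim genes such as Fshr and Figla carry little information.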
